A study of Mus musculus with 9 samples.

Results

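The growth factor receptor and feedback genes of dendritic cells were followed in the RNA of splenic type 2 conventional dendritic cells (cDC2s). They comprise the receptor genes Flt3, Csf2ra, Csf2rb, Csf2rb2 and Csf1r, the signal transducer Stat5a and the feedback inhibitors Socs1, Socs2, Socs3 and Cish. The set was chosen by gene name for its role in cytokine signalling, with earlier results of these data known. All 10 genes had a row in the deposited count table, which lists 14209 genes, and 8 of the 10 passed the filter on low counts that left 12043 genes for testing. Socs1 and Cish did not. The cells came from the spleens of C57BL/6 mice of 3 genotypes, with 3 libraries each. The Gα13-deficient mice carried a floxed Gna13 allele and a Cre recombinase under the CD11c promoter (CD11c-Cre Gna13fl/fl), which is active in dendritic cells and in some macrophages. The CD97-deficient mice were Adgre5-/-, and the WT mice served as the reference for both. CD97 belongs to the adhesion class of G protein-coupled receptors, and Gα13 is the alpha subunit of a heterotrimeric G protein. The genotype label of the Gα13-deficient libraries names Adgre5-/- as well, and the groups used here follow the sample titles and the study's design. The sources used here do not give ages, the presence of Cre in the other mice or whether each library came from its own mouse, so the p-values measure the spread between libraries, which may be technical.

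FLT3 is a receptor tyrosine kinase whose ligand drives the growth of dendritic cell precursors and maintains conventional dendritic cells in lymphoid organs. GM-CSF acts through a receptor made of the ligand-binding chain CSF2Rα and a shared β chain, and the β chain carries JAK2, which activates STAT5. STAT5 in turn induces some genes of the SOCS family, among them Cish and Socs2. The SOCS proteins bind the receptors or their kinases and damp the signal. The CSF1 receptor is the growth factor receptor of macrophages and is also present on a part of the cDC2s.

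The libraries held 5679946 to 13904646 counts, and 3 counts corresponded to 0.216 to 0.528 CPM (counts scaled to a fixed library size) of the library total. Gna13 was at 91.7 to 114 CPM in the Gα13-deficient libraries, against 186 to 228 CPM in WT, and fell by 1.09 ± 0.11 on the log2 scale (SE; edgeR quasi-likelihood adjusted p = 0.000101). Cd97, the older symbol of Adgre5, was at 438 to 840 CPM in the CD97-deficient libraries, against 899 to 1506 CPM in WT, without passing the edgeR test (log2 fold change -0.89, adjusted p = 0.103). DESeq2 called this fall (-0.89, adjusted p = 0.0188), and in the female-pattern libraries alone, with 1 WT library, the value was -0.43 (edgeR adjusted p = 0.81). In the Gα13-deficient libraries Cd97 was at 1016 to 1224 CPM. The sources used here do not say which part of Adgre5 was deleted, and its exons overlap 895 bases of Ddx39 on the other strand. All 10 cDC2 markers were present, with summed levels of 9005 to 10216 CPM in Gα13-deficient, 8635 to 9074 CPM in CD97-deficient and 9364 to 10777 CPM in WT libraries. Most of each sum came from H2-Ab1. In Gα13-deficient cells 2 of the 10 cDC2 markers rose and 3 fell, and in CD97-deficient cells none was called (4 at an unadjusted p under 0.05). Summed T cell and NK cell markers reached at most 6.98 and 6.61 CPM. Macrophage markers varied within each group, with sums of 922 to 1282 CPM in Gα13-deficient, 824 to 2178 CPM in CD97-deficient and 701 to 1712 CPM in WT libraries. Monocyte markers summed to 958 to 1519 CPM in Gα13-deficient, 693 to 893 CPM in CD97-deficient and 538 to 995 CPM in WT libraries. Most of each monocyte sum came from Lyz2, which edgeR called in neither deficient group (adjusted p = 0.123 in Gα13-deficient and 0.775 in CD97-deficient cells). By gene, 0 of 15 macrophage markers rose and 1 fell in Gα13-deficient cells, and 1 rose and 1 fell in CD97-deficient cells. Of 10 tested monocyte markers, 2 rose and 0 fell in Gα13-deficient cells, namely Ly6c2 (log2 fold change 2.08, adjusted p = 0.0383) and Cx3cr1 (1.54, adjusted p = 0.00678). None of the 10 was called in CD97-deficient cells (1 at an unadjusted p under 0.05). No marker of either list but F13a1, of monocytes, was at 0 in any library. Plasmacytoid dendritic cell markers summed to 218 to 334 CPM in Gα13-deficient, 171 to 195 CPM in CD97-deficient and 154 to 212 CPM in WT libraries. Of these 8 markers 2 rose and 0 fell in Gα13-deficient cells, namely Cox6a2 (log2 fold change 2.89, adjusted p = 0.00024) and Tcf4 (0.41, adjusted p = 0.0156), and none was called in CD97-deficient cells (1 at an unadjusted p under 0.05). Markers of type 1 conventional dendritic cells summed to 1662 to 1751 CPM in Gα13-deficient, 1807 to 1930 CPM in CD97-deficient and 1721 to 1908 CPM in WT libraries, most of it from Wdfy4. Of 8 such markers Xcr1 rose in both groups (1.24, adjusted p = 0.0463, in Gα13-deficient and 1.35, adjusted p = 0.0391, in CD97-deficient cells), and Batf3 fell in Gα13-deficient cells (-0.44, adjusted p = 0.0302). B cell markers summed to 319 to 431 CPM in Gα13-deficient, 376 to 487 CPM in CD97-deficient and 335 to 362 CPM in WT libraries, most of it from Cd22, and 0 of 6 were called in either (0 and 3 at an unadjusted p under 0.05). All 3 CD97-deficient libraries had the expression pattern of female mice, against 1 Gα13-deficient and 1 WT library (replicate 2 in both groups).

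Both deficient groups had less RNA of the receptor β chain genes Csf2rb and Csf2rb2 and of Socs2 than WT, while Stat5a and Csf1r did not pass the test in either. In Gα13-deficient cells, 0 of the 8 tested genes rose and 3 fell, namely Socs2, Csf2rb and Csf2rb2, in a comparison in which 11.3% of all tested genes were called (adjusted p under 0.05, over all 12043 genes). In CD97-deficient cells 0 rose and 4 fell, namely Csf2rb, Socs2, Csf2ra and Csf2rb2, in a comparison in which 8.49% of all tested genes were called. All CD97-deficient libraries had the female pattern. With the sex pattern in the model Socs2 kept its CD97 call, while Csf2rb, Csf2ra and Csf2rb2 lost theirs. The Csf2rb2 call held in 1 (Gα13) and 2 (CD97) of the 9 fits without 1 library. The median log2 fold change of the 8 genes was -0.38 in Gα13-deficient and -0.34 in CD97-deficient cells, beside -0.01 and -0.002 for all tested genes. Between Gα13-deficient and CD97-deficient cells 0 of the 8 were called by edgeR, where 0.0415% of all genes were, and 2 had an unadjusted p under 0.05. DESeq2 and limma-voom also called 0. Both comparisons with WT share the same 3 WT libraries, so their values are not independent of each other. In bulk RNA, fewer cells of a type and less RNA per cell cannot be told apart, and the part of the monocyte, plasmacytoid and Xcr1 values given above in these differences was not tested.

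**Figure D1:**
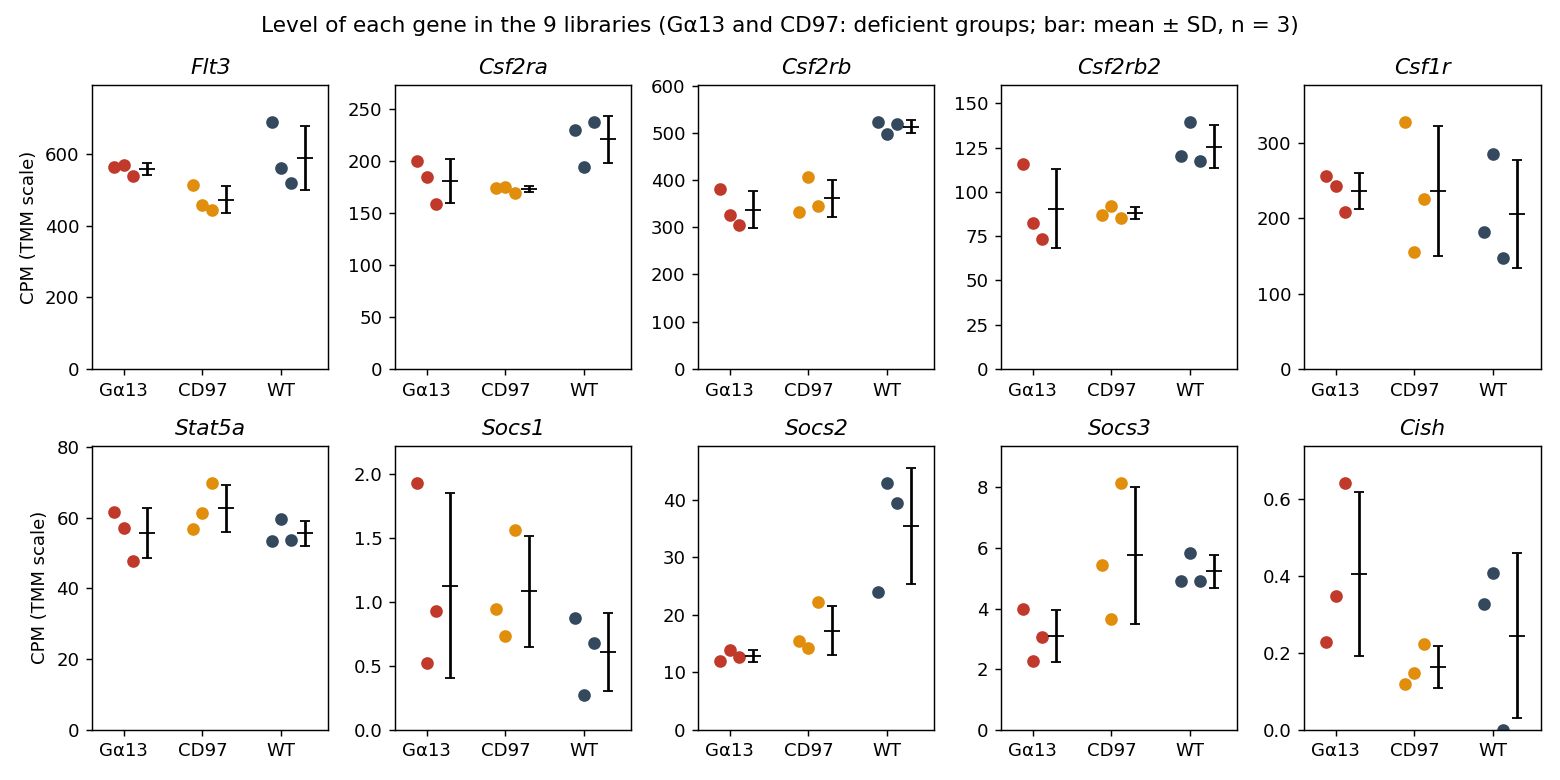
Level of each of the 10 genes in the 9 libraries (vertical axis, CPM on the TMM scale, from 0), with Gα13-deficient, CD97-deficient and WT libraries from left to right as points in replicate order and the mean ± SD (n = 3) beside them. Csf2rb and Socs2 lie lower in all 6 deficient libraries than in every WT library, and Socs1 and Cish stay under 2 CPM throughout.

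Per kilobase of merged exons, Flt3 had the highest level of the 10 genes in every group, at 90.2 ± 2.63 CPM per kilobase in Gα13-deficient, 76.5 ± 6.05 in CD97-deficient and 95.4 ± 14.5 in WT libraries (SD, n = 3 each). Csf2ra and Csf2rb came next, at 76.8 ± 7.97 and 70.5 ± 1.92 CPM per kilobase in WT, and their ranges overlapped there but not in the deficient groups. Csf1r followed at 35.6 ± 12.4 CPM per kilobase in WT, where its range overlapped that of Csf2rb2 (26.5 ± 2.55). In both deficient groups the range of Csf1r overlapped that of Csf2rb instead. Stat5a stood below the receptors at 7.80 ± 0.51 CPM per kilobase in WT. Of the feedback genes, Socs2 (3.72 ± 1.06) was above Socs3 (1.81 ± 0.19) in WT, with no overlap, while the ranges of both overlapped in Gα13-deficient and in CD97-deficient libraries. Socs1 (0.21) and Cish (0.04 CPM per kilobase in WT) were the lowest in every group. These lengths are those of all annotated exons merged, which for Csf2rb (7277 bases) exceed its coding transcript of 4900 bases, so the order of neighbours depends on the annotation. Per kilobase of each gene's longest protein-coding transcript, a scale chosen after the data were seen, Flt3 also had the highest level in every group (152, 129 and 161 CPM per kilobase in Gα13-deficient, CD97-deficient and WT libraries), and Csf2rb had 104.6 in WT. On that scale Socs2 lay above Socs3 without overlap in all 3 groups, and its range overlapped that of Stat5a in WT.

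Csf2rb and Csf2rb2 are 2 copies of the β chain gene in the mouse. Csf2rb encodes the common β chain shared by the receptors of GM-CSF, IL-3 and IL-5, and Csf2rb2 encodes a β chain used only by IL-3. They lie side by side on chromosome 15 (mm10), Csf2rb at 78325752 to 78353847 on the plus strand and Csf2rb2 at 78282507 to 78305721 on the minus strand. Their coding sequences of 2691 and 2637 bases were identical at 95.2% of 2631 aligned bases. Of all 50-base stretches of the Csf2rb transcript, 18.4% also occurred in Csf2rb2, and of those of Csf2rb2 19.0% occurred in Csf2rb. At 100 bases the shares were 6.96% and 7.20%. Reads from such stretches cannot be assigned by sequence, and the sources used here do not say how the authors' counting treated them, so the split of counts between both genes is uncertain. The stretch below is the longest one that both coding sequences share, 242 bases, shown because reads from it fit either gene. It lies in Csf2rb at chr15:78348577-78348818 (plus strand) and in Csf2rb2 at chr15:78284630-78284871 (minus strand).
Csf2rb and Csf2rb2: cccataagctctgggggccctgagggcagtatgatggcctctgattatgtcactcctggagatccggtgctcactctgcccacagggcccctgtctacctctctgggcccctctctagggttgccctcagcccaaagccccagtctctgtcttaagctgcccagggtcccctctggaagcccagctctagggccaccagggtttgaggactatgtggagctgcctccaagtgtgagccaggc

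The next pair is the 120-base stretch within 1 exon of each gene that holds the most differences, 16, with the bases that differ in capitals. It is shown because reads from it can be told apart. It lies in Csf2rb at chr15:78338867-78338986 (plus strand) and in Csf2rb2 at chr15:78294345-78294464 (minus strand).
Csf2rb: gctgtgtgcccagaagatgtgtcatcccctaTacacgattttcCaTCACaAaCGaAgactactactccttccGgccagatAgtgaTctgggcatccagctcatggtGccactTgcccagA
Csf2rb2: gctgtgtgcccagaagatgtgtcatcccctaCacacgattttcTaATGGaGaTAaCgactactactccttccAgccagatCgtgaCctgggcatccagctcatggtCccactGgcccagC

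Csf2rb was lower in both deficient groups. It had 382, 326 and 304 CPM in Gα13-deficient replicates 1 to 3, 333, 405 and 345 CPM in CD97-deficient replicates 1 to 3, and 523, 497 and 519 CPM in WT replicates 1 to 3. All 6 deficient libraries lay below the lowest WT library, and the 2 deficient groups overlapped each other. In Gα13-deficient cells it fell by 0.60 ± 0.10 on the log2 scale (SE; 95% confidence interval -0.81 to -0.40; adjusted p = 0.00148), a fold of 0.658 of WT. In CD97-deficient cells it fell by 0.51 ± 0.10 (interval -0.72 to -0.30; adjusted p = 0.00613), a fold of 0.704. Both calls held in all 9 fits that left out 1 library, and with the macrophage marker level in the model (-0.57 and -0.45, adjusted p = 0.00187 and 0.0241). The log2 fold change in Gα13-deficient cells was -0.61 in the male-pattern libraries alone (adjusted p = 0.0359) and -0.60 in the female-pattern ones (1 library against 1, adjusted p = 0.0827). In CD97-deficient cells it was -0.46 both with the sex pattern in the model (adjusted p = 0.0783) and in the female-pattern libraries alone (adjusted p = 0.088), past the threshold in neither. The difference between Gα13-deficient and CD97-deficient cells was -0.10 on the log2 scale, with an interval of -0.30 to 0.11 (adjusted p = 0.924).

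Csf2rb2 had 116, 82.2 and 73.5 CPM in Gα13-deficient replicates 1 to 3, 86.95, 92.01 and 85.37 CPM in CD97-deficient libraries, and 120, 139 and 117 CPM in WT. The groups did not overlap with WT, although Gα13-deficient replicate 1 came within a few CPM of the lowest WT library. It fell by 0.47 ± 0.14 in Gα13-deficient cells (SE; adjusted p = 0.0494) and by 0.51 ± 0.14 in CD97-deficient cells (SE; adjusted p = 0.0434). These calls lie close to the threshold: the Gα13 call held in 1 and the CD97 call in 2 of the 9 fits without 1 library, with the highest adjusted p of 0.167 without Gα13-deficient replicate 2 and of 0.158 without CD97-deficient replicate 3. In the 2 groups with the replicate number as a block, the adjusted p of the Gα13 call was 0.0505, and in the male-pattern libraries alone the log2 fold change was -0.33 (adjusted p = 0.409). With the sex pattern in the model the values stayed at -0.47 in Gα13-deficient and -0.53 in CD97-deficient cells, with larger errors (SE 0.15 and 0.18) and adjusted p of 0.0666 and 0.192. Both calls were also lost with the macrophage level in the model (adjusted p = 0.0539 in Gα13-deficient cells) and with library totals (0.0581 and 0.0538). The fit of only the 2 groups lost the Gα13 call (0.0926). In the female-pattern libraries alone the log2 fold changes were -0.76 in Gα13-deficient (1 library against 1) and -0.66 in CD97-deficient cells (3 libraries against 1). The spread in that fit comes from the CD97-deficient libraries only, so it does not measure the spread of the Gα13-deficient or WT group.

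Csf2rb2 held 19.5 to 23.3% of the counts of the pair in Gα13-deficient, 18.5 to 20.7% in CD97-deficient and 18.4 to 21.9% in WT libraries, ranges that overlapped. Summing both genes removes the question of which copy a counted read came from, but the sum lacks any shared reads that the counting left out. The sum was 498, 409 and 378 CPM in Gα13-deficient libraries, 420, 497 and 430 CPM in CD97-deficient libraries and 643, 636 and 636 CPM in WT. Every deficient library lay below every WT library. As 1 feature in the fit, the pair fell by 0.58 in Gα13-deficient cells (adjusted p = 0.00232) and by 0.51 in CD97-deficient cells (adjusted p = 0.00728).

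Csf2ra, the GM-CSF-binding chain (chromosome 19, 61223957 to 61228429, minus strand), had 199, 184 and 158 CPM in Gα13-deficient libraries, 173, 175 and 169 CPM in CD97-deficient libraries and 230, 194 and 237 CPM in WT. The CD97-deficient libraries all lay below WT, whereas Gα13-deficient replicate 1 lay above WT replicate 2. In CD97-deficient cells it fell by 0.35 ± 0.10 on the log2 scale (SE; adjusted p = 0.0434). That call held in 3 of the 9 fits without 1 library (adjusted p = 0.149 without CD97-deficient replicate 3) and was lost with the sex pattern in the model (0.322), in the female-pattern libraries alone (log2 fold change -0.17, adjusted p = 0.551), and with the macrophage level (0.162). In Gα13-deficient cells its log2 fold change was -0.29 ± 0.10 (SE; adjusted p = 0.0768), which passed only without WT replicate 2 (0.0286). Split by sex pattern, the Gα13 value of Csf2ra was -0.39 among male-pattern libraries (adjusted p = 0.17) and -0.07 among female-pattern ones (1 library against 1, adjusted p = 0.879). Between Gα13-deficient and CD97-deficient cells the difference was 0.06, with an interval of -0.15 to 0.28.

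Flt3 (chromosome 5, 147330741 to 147400489, minus strand) was at 563, 570 and 539 CPM in Gα13-deficient libraries, 515, 459 and 444 CPM in CD97-deficient libraries and 689, 560 and 518 CPM in WT. The Gα13-deficient libraries lay within the WT range, and the CD97-deficient ones lay below it, replicate 1 only just. The log2 fold change was -0.08 in Gα13-deficient cells (interval -0.29 to 0.13; adjusted p = 0.652). In CD97-deficient cells it was -0.32 ± 0.10 (SE; interval -0.53 to -0.11; adjusted p = 0.0619), which missed the threshold. DESeq2 gave 0.0431 there, and the fit without WT replicate 3 gave 0.0268, while the fit without CD97-deficient replicate 3 gave 0.224. In all, Flt3 was called there in 1 of the 9 fits without 1 library and in 2 of 13 other settings. It was not called with the sex pattern or the macrophage level in the model. The direct difference of Gα13-deficient over CD97-deficient cells was 0.24 (interval 0.03 to 0.45), with an unadjusted p of 0.0307 and an adjusted p of 0.733.

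**Figure D2:**
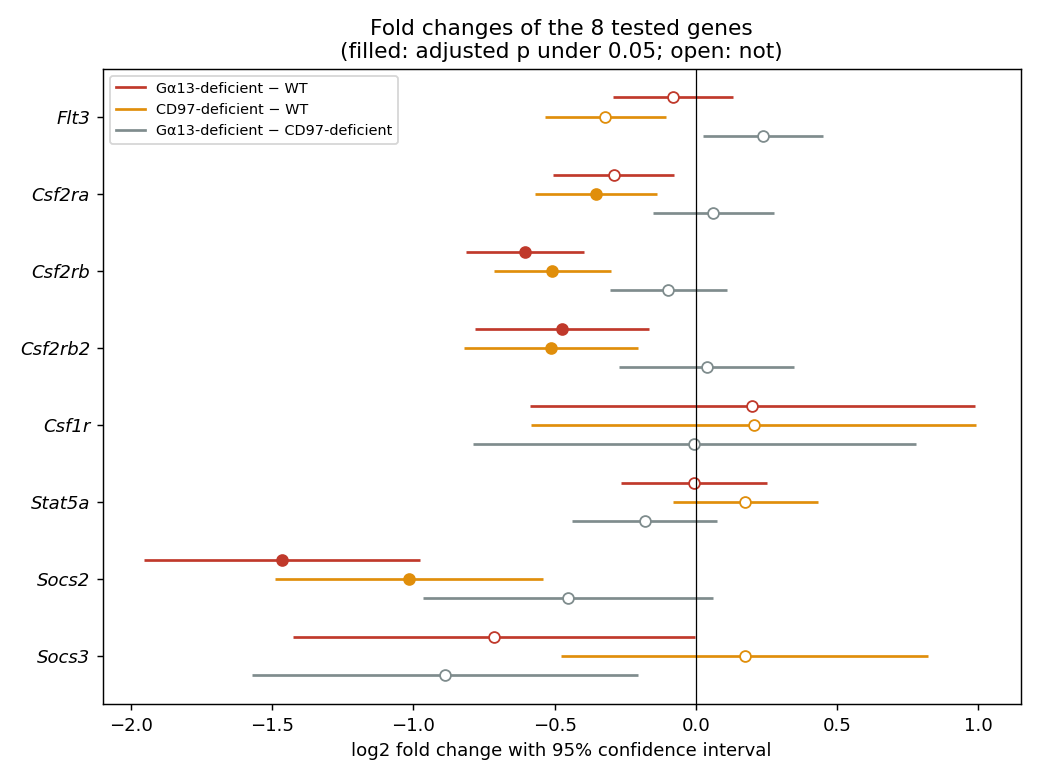
Log2 fold changes with 95% confidence intervals (horizontal axis) of the 8 tested genes in Gα13-deficient minus WT, CD97-deficient minus WT and Gα13-deficient minus CD97-deficient cells, with filled points for adjusted p under 0.05. Socs2, Csf2rb and Csf2rb2 are filled in both comparisons with WT and Csf2ra in the CD97 one, and no point of the direct comparison is filled.

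Csf1r (chromosome 18, 61100598 to 61132149, plus strand) varied more than the other receptors between the libraries of the CD97-deficient and of the WT group. It had 256, 244 and 209 CPM in Gα13-deficient replicates 1 to 3, 328, 155 and 226 CPM in CD97-deficient replicates 1 to 3, and 182, 286 and 148 CPM in WT replicates 1 to 3. The 3 groups overlapped, and the log2 fold changes of 0.20 ± 0.33 in Gα13-deficient and 0.21 ± 0.33 in CD97-deficient cells did not pass (adjusted p = 0.756 and 0.747). The wide intervals, -0.59 to 0.99 and -0.58 to 0.99, leave room for changes of either sign. The libraries with the most Csf1r were those with the highest level of 15 macrophage markers, a list that does not hold Csf1r: CD97-deficient replicate 1, at 1.23 above the mean of the 9 libraries on the log2 scale, and WT replicate 2, at 0.82. CD97-deficient replicate 2 (-0.67), WT replicate 1 (-0.82) and WT replicate 3 (-1.25) had the lowest marker levels and the least Csf1r. CD97-deficient replicate 3, at 0.73, had an intermediate Csf1r level. With the marker level in the model, the log2 fold change of Csf1r in CD97-deficient cells was -0.20, against 0.21 without it, and neither passed. Exons of Csf1r overlap 873 bases of Hmgxb3 exons on the other strand, and the sources used here do not say whether strand entered the counting.

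**Figure D3:**
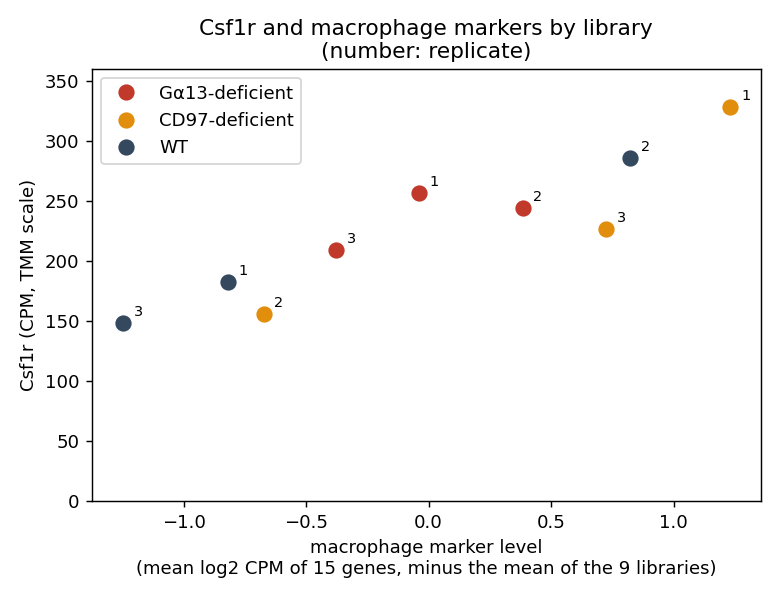
Csf1r in CPM (vertical axis, from 0) against the mean log2 level of 15 macrophage markers, centred on the 9 libraries (horizontal axis), each point a library with its replicate number. Csf1r is lowest, at 148 to 182 CPM, in the 3 libraries with the lowest marker levels, and highest, at 286 and 328 CPM, in the 2 libraries with the highest.

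Stat5a, which carries the signal of the β chain and of other cytokine receptors to the nucleus, had 61.8, 57.2 and 47.9 CPM in Gα13-deficient libraries, 56.9, 61.4 and 69.9 CPM in CD97-deficient libraries and 53.3, 59.8 and 53.7 CPM in WT. All groups overlapped. Its exons share 72 bases with Stat3 on the other strand. The log2 fold change was -0.01 in Gα13-deficient (interval -0.26 to 0.25) and 0.18 in CD97-deficient cells (interval -0.08 to 0.43), with adjusted p = 0.981 and 0.392. Its neighbour Stat5b, a close relative, had log2 fold changes of -0.01 and -0.12 (adjusted p = 0.957 and 0.49).

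Socs2 showed the largest fold change of the 8 tested genes in both comparisons with WT. SOCS2 is induced by STAT5 and is best known as an inhibitor of growth hormone signalling. It had 11.9, 13.9 and 12.6 CPM in Gα13-deficient replicates 1 to 3 (105, 80 and 176 counts), 15.4, 14.2 and 22.1 CPM in CD97-deficient replicates 1 to 3 (130, 97 and 198 counts), and 24.0, 42.9 and 39.4 CPM in WT replicates 1 to 3 (220, 316 and 232 counts). Every deficient library lay below every WT library, and every Gα13-deficient library below every CD97-deficient one. In Gα13-deficient cells it fell by 1.47 ± 0.23 on the log2 scale (SE; interval -1.95 to -0.98; adjusted p = 0.00138), a fold of 0.362. In CD97-deficient cells it fell by 1.01 ± 0.22 (interval -1.49 to -0.54; adjusted p = 0.0139), a fold of 0.495. The Gα13 call held in all 9 fits without 1 library and in all 14 other settings, with -1.35 in the male-pattern and -1.62 in the female-pattern libraries, which are 1 against 1. The CD97 call held in 8 of 9, with an adjusted p of 0.0615 without CD97-deficient replicate 1, and in all 13 other settings, with -1.23 with the sex pattern in the model and -1.30 in the female-pattern libraries alone, where WT is 1 library. With the macrophage marker level in the model Socs2 stood at -1.51 in Gα13-deficient and -1.15 in CD97-deficient cells. The difference of Gα13-deficient over CD97-deficient cells was -0.45 (interval -0.97 to 0.06; adjusted p = 0.815), so the order of the deficient groups was not beyond their spread.

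Socs3, an inhibitor induced mainly through STAT3, was near the lower limit of testing. It had 3.98, 2.26 and 3.07 CPM in Gα13-deficient libraries (35, 13 and 43 counts), 5.44, 3.66 and 8.16 CPM in CD97-deficient libraries (46, 25 and 73 counts) and 4.91, 5.84 and 4.93 CPM in WT (45, 43 and 29 counts). The Gα13-deficient libraries lay below WT and the CD97-deficient ones spread on both sides of it. The log2 fold change was -0.71 ± 0.33 in Gα13-deficient cells (SE; adjusted p = 0.187) and 0.17 ± 0.30 in CD97-deficient cells (adjusted p = 0.763), neither past the threshold. The direct difference of -0.89 (interval -1.57 to -0.20) had an unadjusted p of 0.0145 and an adjusted p of 0.664.

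Socs1, an inhibitor of JAK kinases induced by interferons, had 17, 3 and 13 counts in Gα13-deficient libraries, 8, 5 and 14 counts in CD97-deficient libraries and 8, 2 and 4 counts in WT. Cish, a further STAT5-induced inhibitor, had 2, 2 and 9 counts in Gα13-deficient libraries, 1, 1 and 2 counts in CD97-deficient libraries and 3, 3 and 0 counts in WT. The count of 0 in WT replicate 3 allows up to 0.511 CPM of that library's total, for counting error only. Exons of Cish overlap those of the opposite-strand genes Gm17040 and Gm17041, so part of its few counts may belong to them. Both deficient groups overlapped with WT for both genes. In CPM the Gα13-deficient libraries lay above the CD97-deficient ones for Cish, at 0.227 to 0.643 against 0.118 to 0.223 CPM, values that rest on 13 and 4 counts in all. Neither gene passed the filter for the edgeR test, and differences between the groups were not detectable at this depth.

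STAT5 binds DNA at palindromes of the form TTCNNNGAA, which reads the same on both strands. RefSeq promoter sequences (GRCm38.p6, 250 bases before to 50 after the start) were at hand for 7 of the 10 genes and were searched for it. The motif occurred in Cish, Socs3 and Csf2rb2, 3 of the 7 genes. That is 3 of their 8 promoters, against 8.30% of all 32851 promoters and 7.05% of those of genes in the count table. The genes were chosen for their role in cytokine signalling, so these shares are a description and not a test. The promoters of Flt3, Csf2ra, Stat5a and Socs1 had none in this window, and Socs2, Csf2rb and Csf1r had no sequence in the table. A match is a string of letters, not a measured binding site. The matches are shown with the motif in capitals, because Csf2rb2 is the called gene among them and Cish and Socs3 are feedback genes. The Cish stretch (chr9:107296654-107296683, plus strand) holds 2 matches, from base 1 to base 20 after the start. The Socs3 stretch (chr11:117969502-117969530, minus strand) has its match at -154 to -146 from the start, and that of Csf2rb2 (chr15:78305718-78305746, minus strand) at -15 to -7.
Cish: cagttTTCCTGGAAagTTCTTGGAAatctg
Socs3: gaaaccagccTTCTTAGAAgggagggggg
Csf2rb2: gtgtccacaaTTCTGAGAAgcaagcaaag

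Around these receptors, 90 genes of 6 signalling lists were tested. In Gα13-deficient cells 4 rose and 11 fell, or 16.7% called beside 11.3% of all genes, and 25 had an unadjusted p under 0.05. In CD97-deficient cells 3 rose and 6 fell, or 10% called beside 8.49% of all genes, and 33 had an unadjusted p under 0.05. In the female-pattern libraries alone, with 1 WT library, 0 of the 15 Gα13 calls and 1 of the 9 CD97 calls held, and in the male-pattern libraries 3 of the 15 Gα13 calls did. With the sex pattern in the model 14 of the 15 Gα13 calls and 2 of the 9 CD97 calls held. With the macrophage marker level in the model 13 of the 15 and 3 of the 9 held.

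Of 10 genes for JAK kinases and STAT factors, 0 rose and 2 fell in Gα13-deficient cells, and 0 rose and 1 fell in CD97-deficient cells. The median log2 fold changes were -0.09 in both. Tyk2, the JAK kinase of interferon and IL-12 receptors, averaged 113 ± 9.88 CPM in Gα13-deficient, 111 ± 2.14 in CD97-deficient and 166 ± 9.25 in WT libraries (SD, n = 3 each). It fell by 0.56 (adjusted p = 0.00136) and by 0.58 (adjusted p = 0.00168) in Gα13-deficient and CD97-deficient cells, and both calls held in all 9 fits without 1 library but not in the female-pattern libraries alone (0.148 and 0.0545). Stat4, which transmits IL-12 signals, fell by 0.76 in Gα13-deficient cells (adjusted p = 0.00473), with -0.35 and adjusted p = 0.145 in CD97-deficient cells. Jak2, the kinase bound to the β chain, averaged 1188 ± 14.3 CPM in Gα13-deficient, 1186 ± 17.9 in CD97-deficient and 1237 ± 90.6 in WT libraries, with log2 fold changes of -0.06 in both (adjusted p = 0.648 and 0.632).

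Of 18 other SOCS genes and inhibitors of cytokine signalling, 1 rose and 3 fell in Gα13-deficient cells, and 0 rose and 1 fell in CD97-deficient cells. Their medians were -0.02 and -0.04. Cblb, a ubiquitin ligase that restrains immune receptor signals, fell by 0.39 in Gα13-deficient (adjusted p = 0.0162) and by 0.51 in CD97-deficient cells (adjusted p = 0.00493). The Gα13 call of Cblb held in 7 of 9 fits without 1 library and the CD97 call in 9 of 9. Ptpn2, a phosphatase of JAK1 and JAK3, fell by 0.59 in Gα13-deficient cells (adjusted p = 0.00978). Ptpn6, which encodes the phosphatase SHP-1, rose by 0.30 there (adjusted p = 0.0405) and Pias3, an inhibitor of STAT3, fell by 0.45 (adjusted p = 0.0486), but these calls held in 1 and 0 of the 9 fits without 1 library. In the 2 groups with the replicate block, adjusted p was 0.0764 for Ptpn6 and 0.0892 for Pias3. The remaining SOCS genes Socs4, Socs5, Socs6 and Socs7 had log2 fold changes of -0.19 to 0.01 in Gα13-deficient and -0.17 to -0.04 in CD97-deficient cells, none called.

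Of 26 other receptors that signal through JAK kinases, 22 were tested, and 1 rose and 2 fell in Gα13-deficient cells, while 1 rose and 0 fell in CD97-deficient cells. The median log2 fold changes were -0.11 and -0.21. Il4ra, the IL-4 receptor α chain, fell by 0.34 (adjusted p = 0.0236) and Il10ra, a chain of the IL-10 receptor, by 0.45 (adjusted p = 0.0287) in Gα13-deficient cells. Il12rb2, a chain of the IL-12 receptor, rose by 0.31 (adjusted p = 0.0237) in Gα13-deficient and by 0.28 (adjusted p = 0.0436) in CD97-deficient cells. Without 1 library, the Gα13 calls of Il4ra, Il10ra and Il12rb2 held in 4, 5 and 4 of 9 fits and the CD97 call of Il12rb2 in 2 of 9. The adjusted p of the CD97 call was 0.126 with the sex pattern in the model and 0.0746 with the macrophage level. The Gα13 calls of Il4ra and Il12rb2 were lost with the replicate block in the 2 groups (0.0606 and 0.0648). Il2rg, the γ chain shared by several interleukin receptors, had log2 fold changes of 0.08 and 0.05 (adjusted p = 0.565 and 0.706).

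Of 12 growth factor ligands and related receptor kinases, 5 were tested. In Gα13-deficient cells Kit, the receptor of stem cell factor and a relative of FLT3, fell by 0.33 (adjusted p = 0.0419), a call that held in 3 of 9 fits without 1 library. With the macrophage level in the model the call was lost (0.0584). In CD97-deficient cells 0 of the 5 were called by edgeR, and 2 had an unadjusted p under 0.05, among them Kit at -0.28 (adjusted p = 0.0849). Flt3l, the gene of the FLT3 ligand, averaged 18.3 ± 4.06 CPM in Gα13-deficient, 18.2 ± 2.14 in CD97-deficient and 18.8 ± 3.01 in WT libraries.

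Of 13 genes known as STAT5 targets in other cells, 2 rose and 1 fell in Gα13-deficient cells, and 1 rose and 2 fell in CD97-deficient cells, with medians of 0.09 and -0.002. Ccnd2, a D-type cyclin, averaged 82.0 ± 1.44 CPM in Gα13-deficient, 80.3 ± 22.9 in CD97-deficient and 168 ± 28.0 in WT libraries (SD, n = 3 each). It fell by 1.03 (adjusted p = 0.00694) and 1.06 (adjusted p = 0.00869), and both calls held in all 9 fits without 1 library. With the sex pattern in the model the CD97 call of Ccnd2 was lost (0.0841). Bcl2, which protects cells from apoptosis, rose by 0.76 in Gα13-deficient (adjusted p = 0.0214) and by 0.68 in CD97-deficient cells (adjusted p = 0.045), calls that held in 6 and 1 of 9 fits without 1 library. Ccnd3, another D-type cyclin, rose by 0.69 in Gα13-deficient cells (adjusted p = 0.00522), and Bcl6, a repressor that STAT5 lowers, fell by 0.31 in CD97-deficient cells (adjusted p = 0.0445, held in 2 of 9 fits). The CD97 calls of Bcl2 and Bcl6 were lost with the sex pattern in the model (0.218 and 0.302) and with the macrophage level (0.156 and 0.164). Pim1, a kinase that promotes survival, had log2 fold changes of -0.14 and -0.76 (adjusted p = 0.764 and 0.0983).

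Of 23 genes of PI3K, mTOR and RAS signalling, which act downstream of FLT3, 22 were tested. In Gα13-deficient cells 0 rose and 2 fell, and in CD97-deficient cells 1 rose and 2 fell, with medians of -0.06 and -0.09. Pik3cb and Pik3cd, catalytic subunits of PI3K, fell by 0.39 and 0.34 in Gα13-deficient cells (adjusted p = 0.00872 and 0.0187) and by 0.33 and 0.29 in CD97-deficient cells (adjusted p = 0.0269 and 0.0428). Without 1 library, the Gα13 calls held in 8 and 6 and the CD97 calls in 6 and 3 of 9 fits. Akt1, a kinase activated by PI3K, rose by 0.42 in CD97-deficient cells (adjusted p = 0.0385), a call that held in 2 of 9 fits. All 3 CD97 calls were lost with the sex pattern in the model (0.281, 0.345 and 0.25 for Pik3cb, Pik3cd and Akt1). They were also lost with the macrophage level (0.104, 0.167 and 0.096). Between Gα13-deficient and CD97-deficient cells, 0 genes of these 6 lists were called by edgeR, and 6 had an unadjusted p under 0.05.

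**Figure D4:**
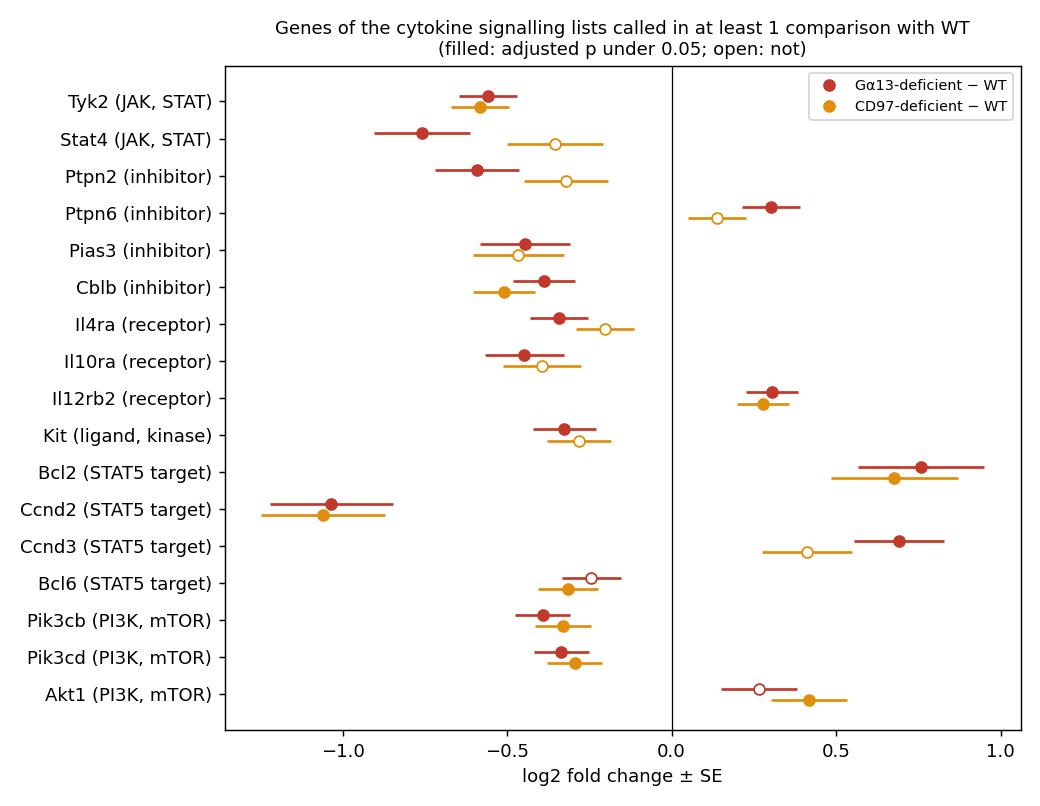
Log2 fold change ± SE (horizontal axis) of the genes from the 6 cytokine signalling lists called in at least 1 comparison with WT, for Gα13-deficient minus WT and CD97-deficient minus WT cells, with filled points for adjusted p under 0.05. Ccnd2 has the lowest values, near -1.0 in both, and Tyk2, Cblb, Il12rb2, Ccnd2, Bcl2, Pik3cb and Pik3cd are filled in both.

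Of 15 markers of dendritic cell maturation 14 were tested, and 0 rose and 9 fell in Gα13-deficient cells, while 0 rose and 6 fell in CD97-deficient cells, with medians of -0.53 and -0.56. That is 64.3% and 42.9% called, beside 11.3% and 8.49% of all genes. This list was chosen with earlier results of these data known, so its counts are a description and not a test. Cd83 averaged 182 ± 19.3 CPM in Gα13-deficient, 199 ± 10.4 in CD97-deficient and 325 ± 13.4 in WT libraries (SD, n = 3 each). Traf1, Ccl5 and Tmem123 fell by 0.55, 0.94 and 0.95 in Gα13-deficient cells and by 0.52, 1.20 and 0.79 in CD97-deficient cells. All 4 were called in both comparisons and in all 9 fits without 1 library. In the female-pattern libraries alone (1 library against 1) the Gα13 calls of Traf1 (adjusted p = 0.0799) and Ccl5 (0.21) were lost. What part the share of mature cells has in the values of Csf2rb and Socs2 was not tested.

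The genes whose pattern over the 9 libraries lay closest to each called gene were sought by the root mean square difference of log2 CPM, each centred on its own mean. Csf2rb, whose own SD over the libraries was 0.31, was closest to Nfat5 (0.07), Prr5l (0.07) and Dnase1l3 (0.07). Socs2, with an SD of 0.69, was closest to H2-M2 (0.18), Il18rap (0.24) and Tmem42 (0.25). H2-M2 had log2 fold changes of -1.40 in Gα13-deficient and -1.01 in CD97-deficient cells. Csf2rb2 (SD 0.31) was closest to Clec2d (0.10), Tnfrsf1b (0.11) and Epsti1 (0.12). Csf2ra (SD 0.20) was closest to Pnpla6 (0.05), to Il10rb (0.05), a chain of the IL-10 receptor, and to Pik3r5 (0.06). These are descriptions of likeness over libraries that share their groups.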

How the data were processed

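RNA was sequenced from splenic cDC2s, 3 libraries per genotype. The authors deposited whole-number counts per gene symbol in 1 table. STAR, HTSeq, DESeq2 and the build mm10 are named, without versions or settings, per the submitters' processing notes. The sources used here do not say whether strand entered the counting. Every one of its 14209 genes has a total of 10 counts or more. Groups and replicate numbers follow the sample titles, and WT columns were matched through the source names. The members and gene lists were chosen with earlier results of these data known.

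Tests used the quasi-likelihood method of edgeR 4.0.16 (R 4.3.3) with TMM factors and robust estimation, all 9 libraries in 1 fit, after the default expression filter left 12043 genes and removed 2166. Adjusted p is Benjamini-Hochberg over all 12043, with a threshold of 0.05. CPM values are on the TMM scale unless the library total is named, and levels between genes are per kilobase of merged mouse GENCODE exons (release M21). The total counts, 5679946 to 13904646, and 3 libraries per group set the precision; the common biological coefficient of variation was 0.15. The gene test was checked on simulated counts. The text names all members, the targeted genes, up to 4 called genes per list and comparison by smallest p, and 3 nearest genes per called member. Genes outside this rule (Jak2, Stat5b, Socs4 to Socs7, Il2rg, Flt3l, Pim1, the cell type markers, and Kit in CD97-deficient cells) were chosen after their values were seen. The coding sequences were taken from the GENCODE transcript sequences of the same release and aligned with Biopython, and coordinates are those of mm10.

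Replicate numbers carry no stated meaning in the labels. Same-number libraries of the Gα13-deficient and WT groups deviated together in 3 of 3 pairs (correlations 0.111 to 0.179, above 0.1), so the replicate block is given beside those results where it changes a call. In the other comparisons 0 of 3 pairs did. Libraries with unlike numbers had correlations of -0.12 to -0.021 between the Gα13-deficient and WT groups. Between the CD97-deficient and WT groups unlike numbers gave -0.27 to 0.22, so a value above 0.1 does not by itself mark a pair. In both the Gα13-deficient and the WT group, replicate 2 had the female pattern and the highest macrophage marker level (0.38 and 0.82). Replicate 3 had the lowest level in both (-0.38 and -1.25). What part sex pattern and marker level have in these correlations was not tested. The WT numbers follow the titles, and the columns of the count table number the WT libraries otherwise. Alternatives were other scalings, no filter, DESeq2 1.42.0, limma-voom (limma 3.58.1), fits of only 2 groups, the replicate block, sex pattern or macrophage level as a covariate, libraries of 1 sex pattern, the β chain copies summed, edgeR's older dispersion method each library left out and, for levels, the length of the longest protein-coding transcript.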

Additional observations from a re-analysis of the deposited data

How the results depend on the processing

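Genes called in Gα13-deficient cells against WT numbered 1366, but 156 in female-pattern libraries only (1 against 1, with the spread taken from CD97-deficient libraries) and 561 in male-pattern ones, and 768 (without Gα13-deficient replicate 2) to 1468 without 1 library. In CD97-deficient cells they numbered 1023, but 213 with the sex pattern, 473 with the macrophage level, 192 in female-pattern libraries and 350 to 1227 without 1 library (350 and 514 without CD97-deficient replicates 3 and 1, 429 without WT replicate 1). With library totals the split was 868 higher and 531 lower in Gα13-deficient and 766 higher and 341 lower in CD97-deficient cells, against 709 and 657 and 580 and 443 with TMM factors. In the direct comparison, where 5 genes passed, DESeq2 gave 55, 2 groups 49, the replicate block 15 (all libraries) and 66 (2 groups), the sex pattern 3, the macrophage level 15, female-pattern libraries 17, and fits without 1 library 4 to 27 (16 without Gα13-deficient replicate 3, and 15, 27 and 12 without WT replicates 1, 2 and 3). Of the 8 genes followed, 2 to 3 were called in Gα13-deficient and 1 to 4 in CD97-deficient cells without 1 library (1 when CD97-deficient replicate 1 was left out, and 2 when CD97-deficient replicate 2 or 3, Gα13-deficient replicate 2 or WT replicate 1 was). In CD97-deficient cells the number was 2 with library totals, 1 with the sex pattern, 2 with the macrophage level and 2 in female-pattern libraries. Without 1 library 0 passed in the direct comparison. The replicate block changed no other call of the genes named in Gα13-deficient cells than those given with them. In CD97-deficient cells, 0 of 3 same-number pairs with WT passed a correlation of 0.1. There the block gave 1051 genes (all libraries, with Flt3 at an adjusted p of 0.0339) and 742 (2 groups, with Csf2ra at 0.0597). It also lost the CD97 call of Il12rb2 (0.0514 with all libraries and 0.0852 with 2 groups). With 2 groups the CD97 calls of Bcl6 (0.0862), Bcl2 (0.0581) and Pik3cd (0.0942) were lost as well. The number of genes with the motif was 3, or 2 in the 250 bases before the start alone.

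Signs turned in uncalled values. In Gα13-deficient cells these were Stat5a with library totals (0.031) and in male-pattern libraries (0.029), and Flt3 (0.030), Csf1r (-0.22) and Cd97 (0.45) in female-pattern libraries. Without 1 library the ranges were -0.093 to 0.10 for Stat5a, -0.17 to 0.049 for Flt3 and -0.31 to 0.040 for Cd97. In CD97-deficient cells Csf1r turned with the sex pattern (-0.050), the macrophage level (-0.20) and in female-pattern libraries (-0.26), and Socs3 with the macrophage level (-0.014), with ranges without 1 library of -0.10 to 0.52 for Csf1r and -0.18 to 0.37 for Socs3. In the direct comparison Csf1r turned without the filter (0.0045), with limma-voom (0.041), with the replicate block (0.00031 and 0.042), the sex pattern (0.30), the macrophage level (0.26) and in female-pattern libraries (0.039), Csf2ra with the sex pattern (-0.011), and Csf2rb2 in female-pattern libraries (-0.10). Its ranges without 1 library were -0.017 to 0.15 for Csf2ra, -0.20 to 0.0038 for Csf2rb, -0.18 to 0.18 for Csf2rb2 and -0.22 to 0.30 for Csf1r. The cause was not tested. In the covariate fit the sex term rests on the Gα13-deficient and WT groups, which hold 1 female-pattern library each. Male-pattern libraries gave no value for CD97-deficient cells, since there are none.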
